A study of Arabidopsis thaliana with 6 samples.

Results

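The genes carried by the organelles' own genomes were examined in root tips of Arabidopsis thaliana. They were taken as every entry of the expression table whose locus identifier starts with ATCG (chloroplast genome) or ATMG (mitochondrial genome), whatever its value. This gave 271 rows of the 33201 in the table, 130 from the chloroplast and 141 from the mitochondrion, and the other 32930 rows were nuclear. The 271 rows stood for 278 loci, because 6 rows joined neighbouring or overlapping loci under a single value.

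The study compared Col, the wild type accession, with an3, a loss-of-function mutant of ANGUSTIFOLIA 3 (AN3), which encodes a transcriptional coactivator. Each genotype had 3 RNA-seq samples, all of meristematic root tissue, the lowest 5 mm or so of roots of seedlings 5 days old, grown on MS medium with sucrose under long days at the same temperature. The mutant was represented by a single line, with 3 biological replicates of it and of Col, and a sample pooled the root tips of many seedlings. The table held 1 FPKM value for each gene in each genotype, standing for its 3 samples together. FPKM counts the fragments of a transcript scaled to its length and to the number of mapped reads. There was therefore no spread between replicates to set a difference against, no test was made, and the depth of the libraries is unknown. All differences given here describe these 2 values. AN3 itself (AT5G28640, chromosome 5) stood at 21.5 FPKM in Col and 2.55 in an3, or 11.9% of the Col level.

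Chloroplasts and mitochondria descend from free-living bacteria and keep small genomes of their own. The chloroplast genome encodes subunits of the photosystems, of the cytochrome b6f complex, of an ATP synthase and of an NADH dehydrogenase-like complex, together with ribosomal proteins, RNA polymerase subunits, ribosomal RNAs and transfer RNAs. The mitochondrial genome encodes subunits of complexes I, III, IV and V of the respiratory chain, factors of cytochrome c biogenesis, ribosomal proteins and RNAs. Most proteins of either organelle, including the phage-type RNA polymerases and the sigma factors, are encoded in the nucleus and imported. In roots the plastids are mostly non-green, and organelle transcripts generally lack the long poly(A) tails of nuclear messenger RNAs.

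A locus identifier was given a gene name only where the annotation at hand tied that identifier to a product or a known gene. Notes were found for 60 of the 278 loci (7 chloroplast and 53 mitochondrial). Many of the mitochondrial notes read unknown protein or gave no product, so fewer loci than these were named. The names came from notes on nuclear genes that give the organelle locus as the closest protein match or as the source of a pseudogene. Other loci are given by identifier alone. No sequence or coordinate is shown, since no source used here gives the genome build behind the table.

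Root identity genes were present in both genotypes. The stele-expressed regulator SHORT-ROOT stood at 9.71 FPKM in Col and 9.06 in an3, the ground tissue regulator SCARECROW at 25.1 and 21.2 FPKM, and the root cap factor SOMBRERO at 11.2 FPKM in an3 (log2 ratio 0.15). The stem cell niche factors were low, with PLETHORA 1 at 0.944 FPKM in Col and 1.47 in an3 and PLETHORA 2 at 1.52 and 1.41 FPKM. PLETHORA 1 lay just past the 1.5-fold limit used here (log2 ratio 0.59). Among 8 markers of shoots and green tissue, 3 were listed at 0 in both genotypes (RBCS1B, RBCS2B and the shoot meristem gene STM). A light-harvesting chlorophyll protein gene, CAB1, was the highest of the 8, at 27.1 FPKM in Col and 8.63 in an3. The Rubisco small subunit gene RBCS1A followed at 3.55 FPKM in Col and 1.67 in an3, and the 8 markers summed to 32.2 FPKM in Col and 10.8 in an3. The markers with a mean above 0 but under 1 FPKM went both ways. RBCS3B was higher in an3, at 0.114 FPKM in Col and 0.140 in an3, and LHCB1.1 and LHCB2.1 were lower. The tissue thus carried its root markers together with green tissue markers. Of the latter, CAB1 in Col stood above each root marker listed here, and the others stood at 3.55 FPKM or less. The sum of the green tissue markers, most of it CAB1, was lower in an3.

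Transcripts of both organelle genomes took a very small share of the table. The chloroplast rows summed to 1227 FPKM in Col and 1056 in an3, which was 0.147% of the Col total and 0.121% of the an3 total. The mitochondrial rows summed to 772 FPKM in Col and 751 in an3, or 0.0927% and 0.0865% of the totals. The sum in an3 was thus 0.860 times that in Col for the chloroplast and 0.973 times for the mitochondrion, beside 1.04 times for the nucleus. Fewer organelles or cells of a kind and less RNA in each cannot be told apart in such bulk samples.

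Most organelle rows were empty or near empty. A value of 0 in both genotypes was listed for 63 chloroplast rows (48.5%) and 95 mitochondrial rows (67.4%), against 31.8% of nuclear rows. A mean of at least 1 FPKM over the 2 genotypes was reached by 31 chloroplast rows (23.8%) and 18 mitochondrial rows (12.8%), against 52.2% of nuclear rows. Between those bounds lay 36 chloroplast and 28 mitochondrial rows that were above 0 with a mean under 1 FPKM. Both organelle genomes also hold transfer and ribosomal RNA genes. These could not be picked out among the rows, so the shares may set unlike kinds of gene beside each other. No source used here says how the library preparation selected RNA, and its part in these low levels was not tested.

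A few rows carried nearly all of the signal. The 10 highest chloroplast rows held 92.5% of the chloroplast sum in Col and 86.3% in an3, and the 10 highest mitochondrial rows held 96.9% and 97.2% of theirs. The highest of all was the mitochondrial row ATMG00020, at 433 FPKM in Col and 426 in an3, rank 335 in the whole table. The highest chloroplast row, ATCG00790, had 254 FPKM in Col and 210.1 in an3 and was ranked 726.

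For each row the ratio of an3 to Col was taken on the log2 scale after 0.1 FPKM was added to both values, which understates the change of low genes. A row was counted as past the fold when its mean was at least 1 FPKM and this ratio exceeded 1.5-fold in either direction. Over the whole table, 6.95% of the 17229 rows that reached 1 FPKM were past the fold, 3.89% as higher and 3.06% as lower in an3. Among chloroplast rows the count was 15 of 31, with 9 higher and 6 lower in an3. Among mitochondrial rows it was 8 of 18, with 2 higher and 6 lower. These shares, 48.4% and 44.4%, stood above the 6.84% of nuclear rows. Past 2-fold lay 7 chloroplast rows (5 higher, 2 lower) and 3 mitochondrial rows (1 higher, 2 lower), where the whole table gave 1.92%, with 1.14% higher and 0.778% lower.

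**Figure D1:**
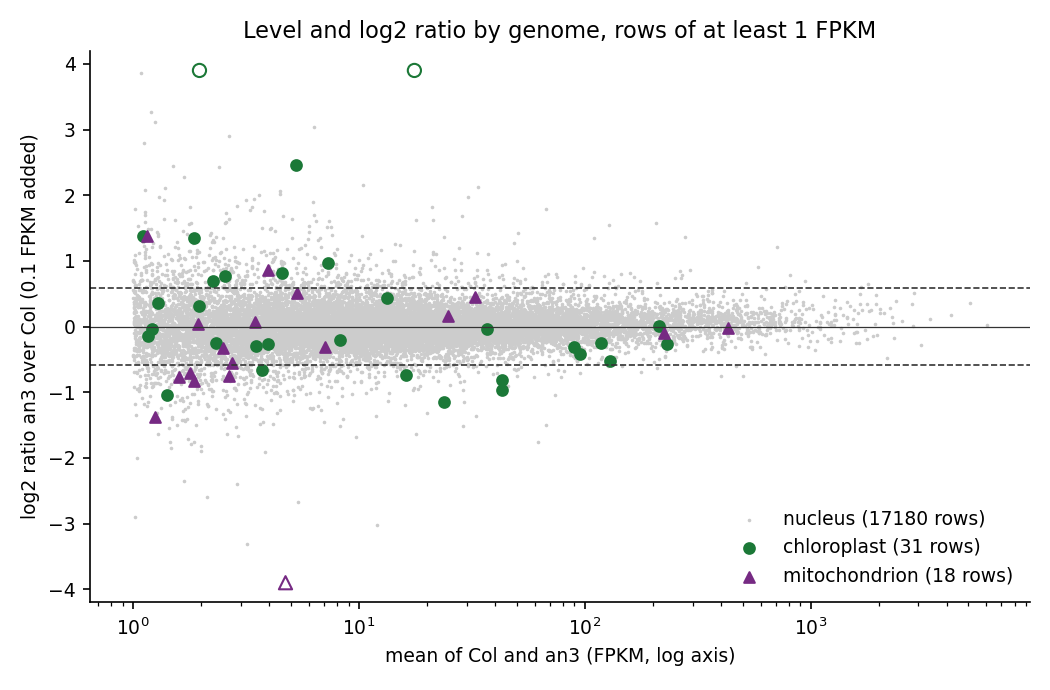
Each point is a table row with a mean of at least 1 FPKM, placed by the mean of its Col and an3 values (FPKM, log axis) and by its log2 ratio of an3 over Col. Dashed lines mark 1.5-fold, and open symbols at the edge are the 3 organelle rows listed at 0 in 1 genotype, drawn at the limit of the axis. Nuclear rows beyond the axis are not drawn, and nuclear log2 ratios ran from -7.34 to 7.89. Of the 31 chloroplast rows 15 lie past the dashed lines, and of the 18 mitochondrial rows 8, where 6.84% of the nuclear rows do.

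The share of nuclear rows past the fold fell with level, so the shares were also taken within bands of mean FPKM. From 1 to under 2 FPKM, 4 of 8 chloroplast rows (50%) and 5 of 6 mitochondrial rows (83.3%) were past the fold, against 20.7% of nuclear rows. From 2 to under 5 FPKM it was 4 of 7 (57.1%) and 3 of 6 (50%), against 11.8%. From 5 to under 10 FPKM it was 2 of 3 (66.7%) and 0 of 2, against 6.59%, and at 10 FPKM and over it was 5 of 13 (38.5%) and 0 of 4, against 3.04%. The chloroplast share was above the nuclear share in each band, and the mitochondrial share only in the bands under 5 FPKM. Each band held few organelle rows. With 1 value per genotype, whether these differences exceed the spread between samples could not be tested.

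**Figure D2:**
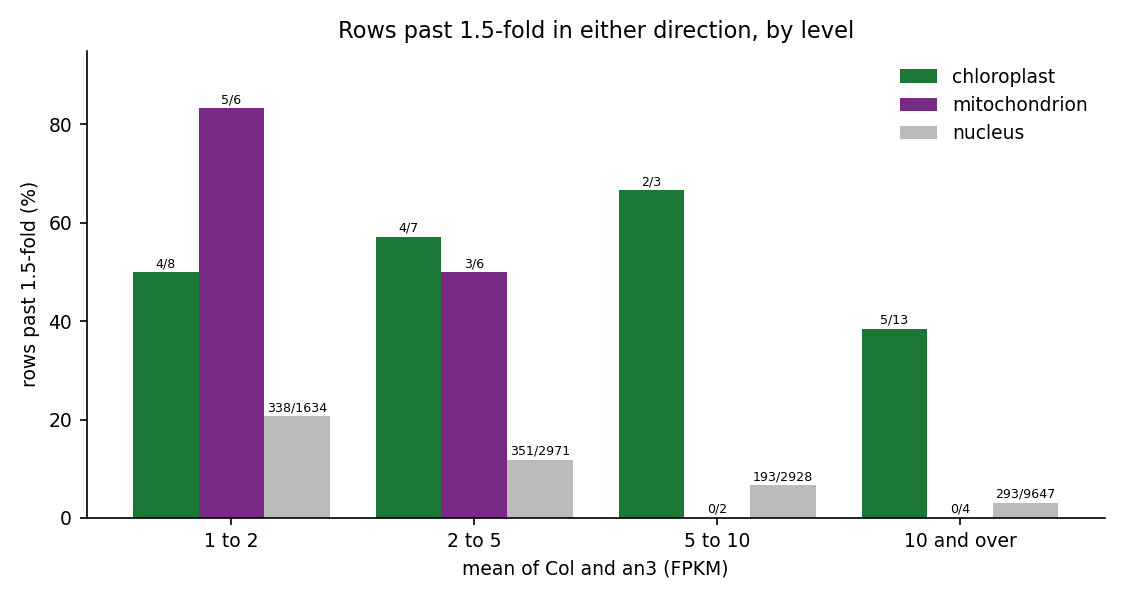
Bars give the percent of rows past 1.5-fold in either direction within bands of mean FPKM, for the chloroplast (green), the mitochondrion (purple) and the nucleus (grey), with the counts above each bar. The nuclear bar falls from 20.7% to 3.04%, the chloroplast bars run from 38.5% to 66.7%, and the mitochondrial bars are at 0 from 5 FPKM upwards, where they stand for 6 rows.

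The directions differed with level in the chloroplast. Of the 13 chloroplast rows of at least 10 FPKM, 10 were lower and 3 higher in an3, with a median log2 ratio of -0.31. Of these 10 lower rows, 7 belonged to 1 run of neighbouring loci, described below and picked out after its values were seen. The remaining rows at this level went both ways, so the lean there is largely that of the run. Of the 18 rows from 1 to under 10 FPKM, 8 were lower and 10 higher, with a median of 0.33, and their sum was 46.3 FPKM in Col and 65.1 in an3. Below 1 FPKM, 23 rows were higher and 13 lower in an3. Over these 31 rows the median log2 ratio was -0.14 and the middle 50% of rows ran from -0.36 to 0.74. The nuclear median was -0.0031, with the middle 50% from -0.16 to 0.16.

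The largest block of chloroplast signal lay in consecutive loci, from ATCG00740 to ATCG00820, a run that was picked out after its values were seen. It covered 8 rows, of which ATCG00760 was listed at 0 in both genotypes. The other 7 rows were all lower in an3, with log2 ratios between -1.15 and -0.25 and a median of -0.52, and 3 of them were past the fold. Together they summed to 753 FPKM in Col and 562 in an3, which was 61.3% and 53.2% of the chloroplast sum. The other 122 chloroplast rows summed to 475 FPKM in Col and 494 in an3, but the higher an3 sum outside the run came from ATCG00010, which was listed at 0 in Col. Without ATCG00010 as well, the other rows summed to 475 FPKM in Col and 458 in an3.

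The named member of the run was ATCG00750, the plastid ribosomal protein S11 of the small ribosomal subunit. It stood at 32.9 FPKM in Col and 14.8 in an3, 44.8% of the Col level and the largest decrease of the run (log2 ratio -1.15). The sources at hand do not pair the other loci of the run with gene symbols, so those are left unnamed. ATCG00740 stood at 20.3 FPKM in Col and 12.2 in an3, and ATCG00770 at 56.8 and 29.1 FPKM, with log2 ratios of -0.74 and -0.96. These 3 rows, ATCG00740, ATCG00750 and ATCG00770, were those of the run past the fold.

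The higher rows of the run were lower in an3 by smaller ratios. ATCG00790 had a log2 ratio of -0.27, and the row joining ATCG00800 and ATCG00810 had 128 FPKM in Col and 108 in an3 (log2 ratio -0.25). ATCG00780 stood at 152 and 106 FPKM (log2 ratio -0.52) and ATCG00820 at 109 and 81.7 FPKM (log2 ratio -0.41). Leaving out ATCG00760, Col levels climbed from ATCG00740 to ATCG00790 and then fell, and an3 levels did the same.

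**Figure D3:**
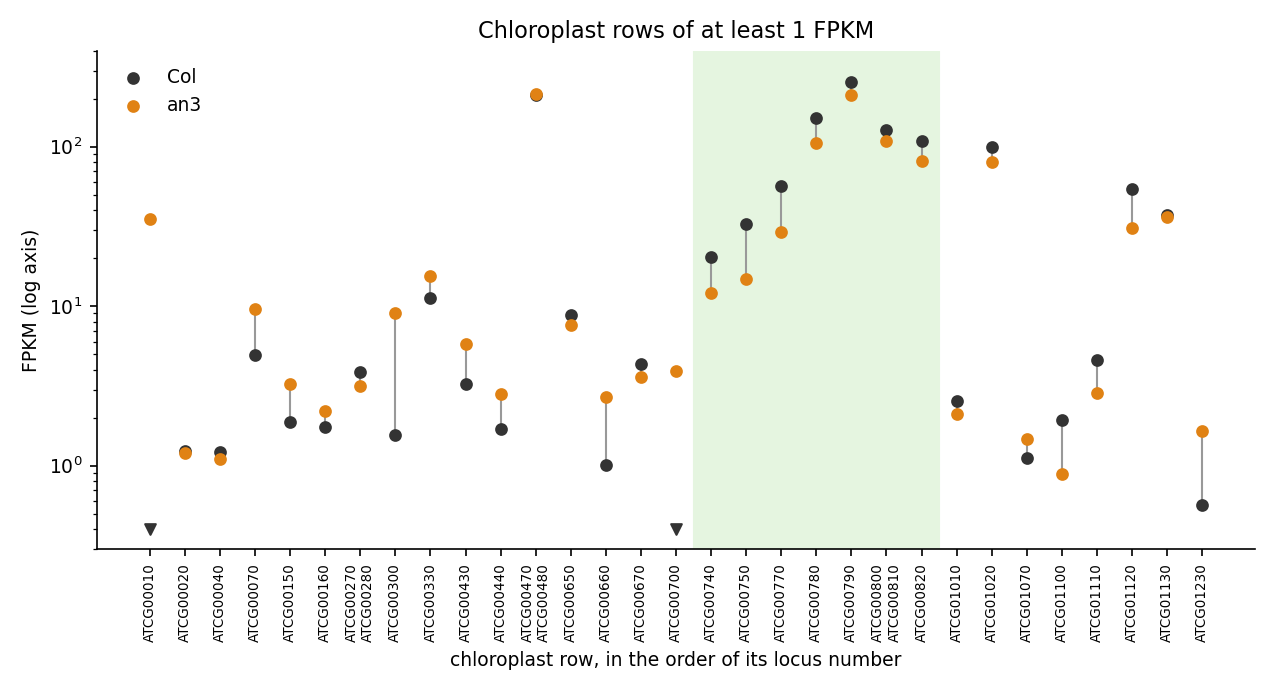
FPKM (log axis) of the 31 chloroplast rows that reached a mean of 1 FPKM, in the order of their locus numbers, with Col in black and an3 in orange, a line joining the 2 values of a row and a triangle at the foot for a value listed at 0. In the shaded run from ATCG00740 to ATCG00820 the an3 point lies under the Col point in all 7 rows, and ATCG00300 shows the widest gap among rows with both values above 0.

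Outside the run, 3 of the highest chloroplast rows were nearly level between genotypes or moderately lower. The row joining ATCG00470 and ATCG00480 had 212 FPKM in Col and 213 in an3, and ATCG01130 had 37.3 and 36.3 FPKM. ATCG01020 stood at 99.8 FPKM in Col and 80.3 in an3 (log2 ratio -0.31). By contrast ATCG01120, next to ATCG01130 in locus number, stood at 54.6 FPKM in Col and 31.0 in an3 and was past the fold (log2 ratio -0.82). ATCG00330 lay above its Col level, at 11.3 and 15.4 FPKM (log2 ratio 0.44), short of the fold.

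Among chloroplast rows of moderate level, most of those past the fold were higher in an3. ATCG00300 had 1.55 FPKM in Col and 9.02 in an3, and ATCG00070 had 4.91 and 9.66 FPKM, with log2 ratios of 2.47 and 0.96. ATCG00150 (1.87 and 3.26 FPKM), ATCG00440 (1.69 and 2.81 FPKM) and ATCG01230 (0.569 and 1.64 FPKM) were also higher. The rows ATCG01100 (1.94 and 0.890 FPKM) and ATCG01110 (4.59 and 2.85 FPKM) were past the fold in the other direction. A value that is listed at 0 in 1 genotype gives no fold, although such a row counts as past it here, and this held for ATCG00010, at 0 in Col and 35.2 FPKM in an3, and for ATCG00700, at 0 in Col and 3.94 FPKM in an3. In all, 10 chloroplast rows were listed at 0 in Col alone, 7 of them under 1 FPKM in an3, and 1 was listed at 0 in an3 alone (ATCG00580, 1.32 FPKM in Col).

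By function, the 7 named chloroplast loci did not share a direction. All of them but S11 stood at 5.83 FPKM or less, and the highest chloroplast rows are unnamed. These loci therefore do not speak for the plastid ribosomal proteins or for any complex as a whole. Of 3 ribosomal proteins, S11 was lower in an3, L20 (ATCG00660), of the large subunit, stood at 1.00 FPKM in Col and 2.71 in an3 (log2 ratio 1.35), and L2 (ATCG01310), also of the large subunit, was low at 0.131 and 0.284 FPKM. The plastid-encoded subunit of the Clp protease, ClpP (ATCG00670), stood at 4.33 FPKM in Col and 3.59 in an3, inside the fold. ATCG00430 stood at 3.27 and 5.83 FPKM (log2 ratio 0.81). Its note reads photosystem II reaction center protein G, but the nuclear gene that carries the note is annotated as a subunit of mitochondrial NADH-ubiquinone oxidoreductase, so its complex is left unsettled here. NdhJ (ATCG00420), of the NADH dehydrogenase-like complex, stood at 0.488 FPKM in Col and 1.24 in an3, and the CemA-like envelope protein (ATCG00530) at 0.206 and 0.367 FPKM.

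In the mitochondrion, 2 rows held most of the signal and were close between genotypes. ATMG00020 and ATMG01390 together made up 86.2% of the mitochondrial sum in Col and 85.6% in an3. ATMG01390 stood at 233 FPKM in Col and 218 in an3, and the log2 ratios were -0.03 for ATMG00020 and -0.10 for ATMG01390. The remaining 139 rows summed to 106 FPKM in Col and 108 in an3. ATMG00030, with 27.7 FPKM in Col and 37.9 in an3, and ATMG00660, with 23.4 and 26.2 FPKM, were the next highest, and both lay above their Col level but inside the fold.

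The rows from 1 to under 10 FPKM leaned the other way. Of these 14 rows, 9 were lower and 5 higher in an3, 6 were past the fold as lower, the median log2 ratio was -0.44, and they summed to 48.3 FPKM in Col and 35.7 in an3. ATMG01380 was the highest of them in Col, at 9.46 FPKM, and was listed at 0 in an3. This row alone made up most of the gap between the 2 sums. ATMG00650 (1.86 and 0.649 FPKM), ATMG00160 (2.03 and 1.15 FPKM), ATMG00070 (3.37 and 1.95 FPKM) and ATMG00640 (2.23 and 1.33 FPKM) were also past the fold as lower. The 2 rows past the fold as higher were ATMG00516 (2.78 and 5.14 FPKM) and ATMG00060 (0.593 and 1.70 FPKM). At 5 FPKM and over, the count past the fold was 0 of 6 mitochondrial rows and 7 of 16 chloroplast rows, 3 of these higher and 4 lower in an3, where 3.86% of nuclear rows passed, so the mitochondrial 0 does not set these 6 rows apart. Over all 18 rows the median log2 ratio was -0.20 and the middle 50% ran from -0.74 to 0.14.

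**Figure D4:**
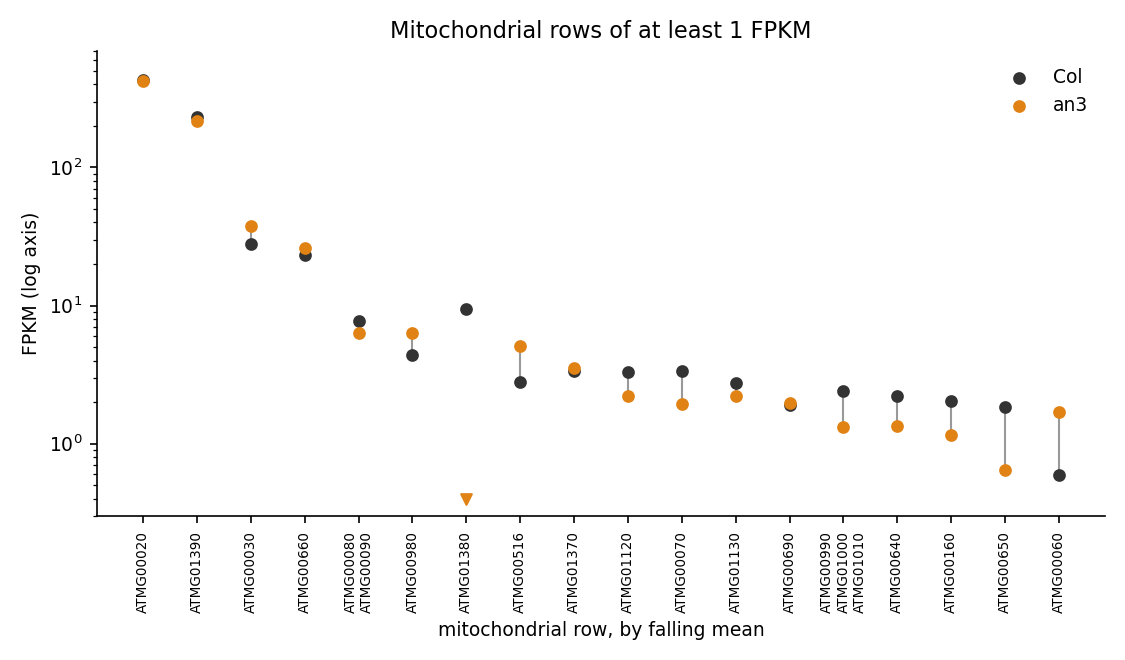
FPKM (log axis) of the 18 mitochondrial rows that reached a mean of 1 FPKM, by falling mean, with Col in black and an3 in orange and a triangle at the foot for a value listed at 0. The points of ATMG00020 and ATMG01390 nearly coincide, at 433 and 426 FPKM and at 233 and 218 FPKM, and ATMG01380 has a Col value of 9.46 FPKM only.

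The named subunits of the respiratory complexes were nearly all listed at or close to 0. Each was named through a near-identical nuclear copy, so its reads fit both places and its level is uncertain. Most mitochondrial rows of at least 1 FPKM stayed unnamed. For complex I, which passes electrons from NADH to ubiquinone, the row of nad3 (ATMG00990, joined with ATMG01000 and ATMG01010) stood at 2.41 FPKM in Col and 1.31 in an3 (log2 ratio -0.83, past the fold). A locus of nad2 (ATMG01330) stood at 0.320 and 0.747 FPKM, a second (ATMG01320) at 0 and 0.206 FPKM, and the nad1 locus (ATMG01275) was listed at 0 in both. Both loci named for cytochrome b, the core of complex III (ATMG00220 and ATMG00590), were listed at 0 in both genotypes. For complex IV, which reduces oxygen, cox3 (ATMG00730) had 0.0247 FPKM in Col and the subunit II-like locus ATMG01280 had 0.121 FPKM in Col, and both were listed at 0 in an3.

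For complex V, the ATP synthase, the loci named for atp1 (ATMG01190), atp6 (ATMG00410) and atp8 (ATMG00480) were listed at 0 in both genotypes. A listed 0 in a table without read counts can be a failed estimate, and genes that every cell uses are among those at 0, so these values are not read as absent or low expression. The subunit 9 loci ATMG01080 and ATMG01090 stood at 0.126 and 0.375 FPKM in Col and at 0.0904 and 0.361 FPKM in an3. The 3 loci of cytochrome c biogenesis (ATMG00180, ATMG00900 and ATMG00960) were listed at 0 throughout. Among 5 mitochondrial ribosomal proteins only rps12 (ATMG00980), of the small subunit, exceeded 1 FPKM, at 4.37 FPKM in Col and 6.29 in an3 (log2 ratio 0.52, inside the fold). Rpl2 (ATMG00560) stood at 0.0895 and 0.190 FPKM, S4 (ATMG00290) at 0 and 0.0308 FPKM, and L5 (ATMG00210) and S7 (ATMG01270) were at 0.

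All of these named mitochondrial loci have near-identical copies in the nucleus, within the large stretch of mitochondrial DNA inserted in chromosome 2. The values of such loci are uncertain. The annotation notes gave 54 pairs of a nuclear copy and a mitochondrial locus, over 52 loci. In alignments of the nuclear copy to the organelle genomes, all 54 were at least 99% identical and 28 were identical. Reads of such genes fit both places, and no source used here says how such reads were treated. Both members of the pair were at 0 in 28 pairs, only the mitochondrial locus was above 0 in 5, only the nuclear copy in 13, and both in 8. In 5 pairs any value reached 1 FPKM.

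In the pairs with signal, the copies did not always lie on the same side of Col. For rps12, the nuclear copy AT2G07675, identical over 378 bp, stood at 3.37 FPKM in Col and 2.79 in an3, so it lay on the other side of its Col level from ATMG00980. For nad3, the copy AT2G07751, identical over 357 bp, stood at 4.29 and 1.42 FPKM, lower in an3 like the mitochondrial row. For atp1, where the mitochondrial locus was listed at 0, the copy AT2G07698 stood at 0.313 and 0.358 FPKM. For the nad2 locus ATMG01330, the copy AT2G07808 stood at 0.842 and 2.48 FPKM. The sums over the pairs were 8.61 FPKM in Col and 9.43 in an3 for the mitochondrial rows and 10.9 and 11.3 FPKM for the nuclear rows.

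The nuclear genes that serve the organelles were listed by role. For 10 lists with 95 genes in all, 89 reached 1 FPKM, and of these 2 were past the fold as higher and 1 as lower, with a median log2 ratio of -0.01. These 3 genes were 3.37% of the 89, where the whole table gave 6.95%. Most of the 89 had means of at least 5 FPKM, where 3.86% of nuclear rows were past the fold. All 3 genes lay under 5 FPKM, where 20.7% (1 to under 2 FPKM) and 11.8% (2 to under 5 FPKM) of nuclear rows were. The share of 3.37% thus does not set the listed genes apart. The organelle RNA polymerases and sigma factors, which transcribe the organelle genomes, gave 8 of 9 genes over 1 FPKM. All 8 were below their Col level, none past the fold, with log2 ratios from -0.35 to -0.04 and a median of -0.20, and their sum was 33.3 FPKM in Col and 28.6 in an3. The lowest ratios were those of SIG5, at 9.85 FPKM in Col and 7.71 in an3 (log2 ratio -0.35), and SIG6, at 2.22 and 1.77 FPKM (log2 ratio -0.31). Of 12 proteins associated with the plastid-encoded polymerase, 11 were below Col, with a median of -0.15. PTAC2, a pentatricopeptide repeat protein of that complex, was past the fold at 2.43 FPKM in Col and a log2 ratio of -0.66. The iron superoxide dismutase FSD2 was past it as higher, at 1.72 and 3.59 FPKM. Among all nuclear rows of at least 1 FPKM, 8690 of 17180 were below their Col level. Whether the small ratios of both lists exceed the spread between samples was not tested.

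Factors of RNA processing and translation showed no shared direction. Of 11 RNA editing factors of the MORF family and polynucleotide phosphorylases, RIP7 (MORF7) was past the fold as higher, at 0.659 FPKM in Col and 1.91 in an3, and the list's median log2 ratio was -0.01. The plastid phosphorylase RIF10 stood at 2.19 and 1.68 FPKM and a second phosphorylase gene, AT5G14580, at 7.03 and 5.23 FPKM. The 26 nuclear-encoded ribosomal proteins of plastids had 0 genes past the fold and a median of 0.03, with sums of 405 FPKM in Col and 412 in an3. RPL4 had the lowest ratio of this list, at 9.78 and 6.81 FPKM (log2 ratio -0.52). S11, the plastid-encoded partner of these proteins, thus lay below the whole range of the list, which ran from -0.52 to 0.27, and L20 above it. L20, at 1.00 FPKM in Col and 2.71 in an3, was lower than any listed gene, whose lowest value was 4.46 FPKM. S11 belongs to the run that was picked out after its values were seen. Neither is therefore a like comparison.

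Of the nuclear subunits of the respiratory complexes, those that reached 1 FPKM were listed far above the named mitochondrial subunits of the same complexes and were close between genotypes. Those mitochondrial subunits are the ones with near-identical nuclear copies, and their values are uncertain. The gap in level is therefore not read as a difference between the genomes. The 10 complex I genes ranged from 35.4 to 531 FPKM over both genotypes and had sums of 2404 FPKM in Col and 2469 in an3, where the highest named mitochondrial subunit, nad3, reached 2.41 FPKM. For complex III, 7 of 8 genes ranged from 139.7 to 456 FPKM and the other, QCR7-2, stood at 0.620 FPKM in Col and 0.489 in an3. The complex IV genes ranged from 204 to 587 FPKM. The 6 complex V genes ranged from 372 to 740.3 FPKM, where the named mitochondrial subunits reached 0.375 FPKM. None of the genes that reached 1 FPKM was past the fold, and the medians of the 4 lists were 0.04, 0.08, 0.09 and -0.02. Of the alternative oxidases, which bypass complexes III and IV, only AOX1A exceeded 1 FPKM, at 43.2 FPKM in Col and 56.9 in an3 (log2 ratio 0.40). ATPC1, a nuclear subunit of the chloroplast ATP synthase, stood at 12.7 and 8.90 FPKM (log2 ratio -0.51), and none of the 4 genes of its list was past the fold.

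**Figure D5:**
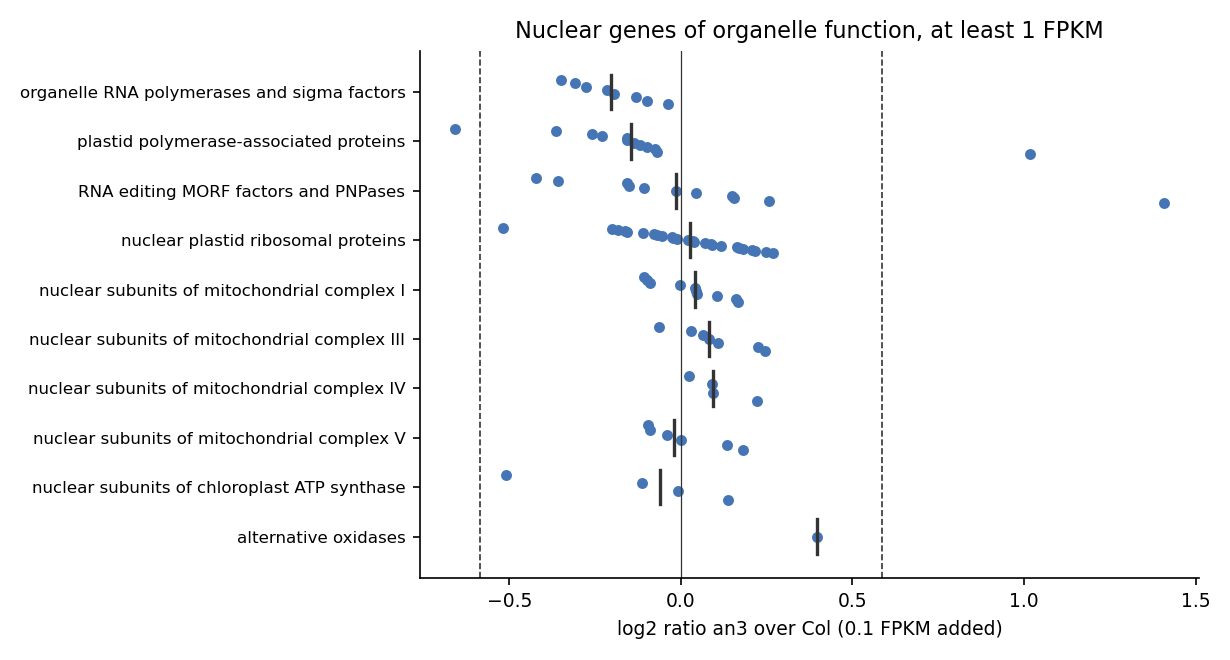
Log2 ratios of an3 over Col (0.1 FPKM added) for nuclear genes of organelle function with a mean of at least 1 FPKM, 1 point per gene, with the list median as a bar and 1.5-fold as dashed lines. The 8 polymerase and sigma factor genes all lie below 0, and 3 genes over all lists (PTAC2, FSD2 and RIP7) lie past the dashed lines.

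The lower chloroplast total of an3 came with a lower sum of the 8 green tissue markers. This sum, most of it CAB1, went from 32.2 FPKM in Col to 10.8 FPKM in an3. Of those 8 markers, 2 reached 1 FPKM (CAB1 and RBCS1A), both past the fold as lower, with log2 ratios of -1.64 and -1.04. The part of green tissue in the chloroplast values was not tested.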

How the data were processed

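RNA from root tips of 3 an3 and 3 Col samples was sequenced by the study as single-end reads. Per the study's methods, the TuxNet interface trimmed reads with fastq-mcf, aligned them with HISAT2 and estimated expression with Cufflinks. No source used here gives their versions, the genome build, the annotation, the strand setting or the handling of reads with several matches. The deposited table gives 1 FPKM value per gene and genotype, which the authors computed for the 3 samples together as far as the sources tell, so the precision of each value and the depth per sample are unknown. Its columns of log2 fold change and q-value hold the authors' own comparison and were not used.

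Rows starting ATCG or ATMG were taken as members. Log2 ratios of an3 over Col used 0.1 FPKM added to both values, and rows were counted as past the fold at 1.5-fold with a mean of at least 1 FPKM. By the naming rule, any member with a mean of at least 1 FPKM could be named, with full values for the 3 highest of each annotated class, the 5 highest and 5 lowest ratios of each genome and every member past the fold with a mean of at least 5 FPKM. Nuclear genes were named when past the fold or, where none was, from the largest changes. Loci under 1 FPKM with an annotated product, and some nuclear copies, were named beyond it after their values were seen. No test was possible. The counting code was tested on simulated data. Organelle products came from notes in the RefSeq TAIR10.1 annotation, and nuclear copies were aligned to the organelle genomes with BLAST+ 2.17.0 (E-value limit 1e-10). Python 3.11.15, pandas 2.3.3, numpy 2.4.6 and matplotlib 3.10.9 were used. The members and gene lists were chosen with earlier results of these data known. Other pseudocounts, level minimums, folds, a rescaling and the removal of single runs or rows were tried as alternatives.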

Additional observations from a re-analysis of the deposited data

How the results depend on the processing

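No paired analysis was possible because the table holds 1 value per genotype, and for the same reason no replicate could be left out. Leaving out transfer and ribosomal RNA genes was not run, as the locus identifiers were not paired with gene types. Over 13 settings, 113 values were recomputed. Of these, 84 changed by no more than 1.5-fold without a change of side, and 29 moved. Counts and medians within that tolerance can still differ visibly. A median that changed side was counted among those that moved. The ratios of single rows were rerun only under other pseudocounts and the rescaling. Neither could turn their side, so reversals are not counted. With a minimum mean of 5 FPKM, 7 chloroplast rows were past the fold (3 higher) and 0 mitochondrial rows (0 higher, 0 lower), and the mitochondrial median log2 ratio was 0.068. With a minimum of 0.1 FPKM there were 33 of 61 chloroplast rows (21 higher, 12 lower) and 18 of 38 mitochondrial rows (9 higher). The share over all rows was not taken at this minimum, so these counts have no background beside them. At 2-fold there were 7 chloroplast rows (5 higher, 2 lower) and 3 mitochondrial rows (1 higher, 2 lower), where 1.92% of all rows passed. With a pseudocount of 1 FPKM, 4 of 18 mitochondrial rows were past the fold (2 lower), and the share over all rows was not taken. The following settings were chosen after seeing the data. Without ATCG00740 to ATCG00820, 3 of 24 chloroplast rows were lower past the fold, beside 3.06% of all rows. The chloroplast median was then 0.16 and its ratio of sums 1.04, a direction that the choice of the run fixes. Without ATCG00010 too, 3 of 23 rows were lower past the fold, the median was 0.013 and the ratio of sums 0.966. Without ATCG00010 alone the ratio of sums was 0.832. Without ATMG00020 and ATMG01390 the mitochondrial ratio of sums was 1.02. Rows listed at 0 in 1 genotype have no fixed ratio, as it is set by the pseudocount.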
